A study of Drosophila melanogaster with 8 samples.

Results

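The 31 genes described here encode subunits and accessory proteins of the vacuolar ATPase (V-ATPase) of Drosophila melanogaster. They are the genes with a symbol starting in Vha that have a probe set naming no other gene, out of 11009 genes measured on the same arrays. The RefSeq gene table lists 33 such symbols. The remaining 2, Vha68-1 and Vha68-2, had no probe set of their own, so the widely used catalytic A subunit was not analysed here. Of the 31 genes 11 belong to the V1 sector, 18 to the V0 sector and 2 to accessory proteins.

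The V-ATPase is a rotary proton pump. Its cytosolic V1 sector hydrolyses ATP and turns a central stalk, and its membrane-embedded V0 sector moves protons through a ring of proteolipids and subunit a. The pump acidifies lysosomes, endosomes and secretory vesicles, and in the lysosomal membrane it takes part in amino acid sensing by the kinase complex TORC1. In macrophage-like cells an acid lysosome is needed to digest what has been taken up. Many fly subunits have several gene copies, of which usually 1 is used widely and the others are restricted to tissues such as testis, gut or nervous system. Here 13 genes (7 of V1, 5 of V0 and 1 accessory) are called general copies and 18 (4, 13 and 1) restricted copies. This assignment comes from general knowledge of the family and not from these arrays.

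S2 cells, a macrophage-like line derived from fly embryos, all received double-stranded RNA (dsRNA), either scrambled or against DmSTING, the fly counterpart of STING, which senses cyclic dinucleotides. After 72 h the cells were transfected with c-di-GMP, a bacterial second messenger, in the lipid reagent Cellfectin, or were mock transfected with that reagent alone, and total RNA was taken 24 h later. The 4 groups were scrambled RNAi with mock, scrambled RNAi with c-di-GMP, DmSTING RNAi with mock and DmSTING RNAi with c-di-GMP, with 2 samples each. Groups follow the sample titles and source names; the genotype field contradicts them in 4 samples. The labels do not say whether replicates were separate cultures. The p-values therefore weigh changes against the spread of these samples only, and that spread may be technical.

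Each probe set was given on a log2 scale with its median across the arrays set to 0, so differences can be read and levels cannot. Whether a restricted copy was expressed at all in these cells, and whether S2 markers were present, can therefore not be read from them. Which base the logarithm has is not given, and 2 was assumed. Sting itself was lower in every DmSTING RNAi sample, from -0.84 to -0.46, than in the 4 given the scrambled sequence, from 0.46 to 0.83. Its log2 change with DmSTING RNAi, averaged over both treatments, was -1.3 (SE 0.05, n = 2 per group, limma adjusted p = 0.000252). If the base is 2, 40.6% of the scrambled value remained, so the knockdown was partial. With c-di-GMP, averaged over both dsRNA arms, the log2 change of Sting was -0.32 (SE 0.05, limma adjusted p = 0.00539). A gene is called changed where the Benjamini-Hochberg adjusted p of a limma fit over all 11009 genes is under 0.05.

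With c-di-GMP, averaged over both dsRNA arms, 6 of the 31 V-ATPase genes fell and none rose. The 6 were Vha68-3, Vha100-4, Vha100-2, Vha100-1, VhaAC39-1 and VhaAC45. Among all genes 20.9% were called in this comparison, 13.3% lower and 7.65% higher, and 19.4% of the V-ATPase genes were called lower, so the count stands not far above the share of all genes. The median log2 change was -0.085 over the 31 genes and -0.027 over all genes. Of the 31, 22 (71.0%) lay below 0, against 57.0% of all genes. The count of 6 was 1 without scrambled mock replicate 2 or without DmSTING RNAi mock replicate 2. It was 2 without replicate 1 of either DmSTING RNAi group, and from 4 to 7 without any other sample. The share of all genes called lower moved too, from 6.71% without DmSTING RNAi mock replicate 2 to 15.5% without scrambled c-di-GMP replicate 2.

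**Figure D1:**
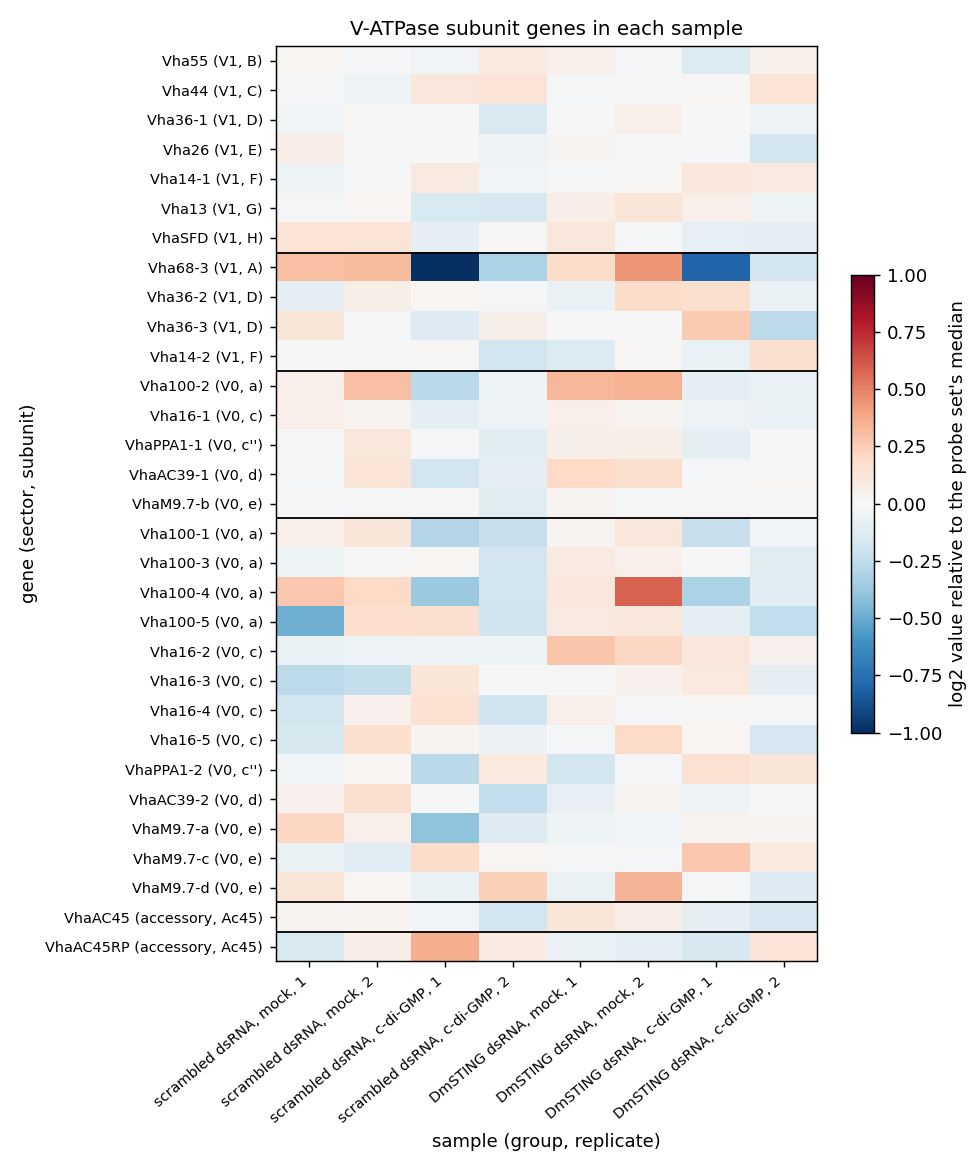
Log2 value of each of the 31 V-ATPase genes (rows, with sector and subunit) in each of the 8 samples (columns), relative to the probe set's median and shown in colour from -1 to 1. Black lines part the sectors and, within each, general copies (upper block) from restricted copies (lower block). The row of Vha68-3 holds the lowest value, -1.0 in scrambled c-di-GMP replicate 1, while the general V1 copies at the top stay between -0.18 and 0.14.

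Of the 7 general V1 copies none was called with c-di-GMP in the average over both arms, where 20.9% of all genes were, and none was called in any other comparison or alternative setting that was run. At an unadjusted p under 0.05 limma counted 3 of the 7 (42.9%) and 33.4% of all genes. Their log2 changes lay between -0.16 and 0.13, with a median of -0.057 against -0.027 over all genes.

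Where 4 pairs of values follow without labels, they are log2 values of replicates 1 and 2 in the order scrambled mock, scrambled c-di-GMP, DmSTING RNAi mock and DmSTING RNAi c-di-GMP. Vha55 encodes subunit B, which forms the nucleotide-binding ring together with subunit A. After scrambled dsRNA it read 0.02 and -0.02 under mock and -0.03 and 0.1 under c-di-GMP on the log2 scale, and after DmSTING dsRNA it read 0.05 and -0.02 under mock and -0.14 and 0.05 under c-di-GMP. The c-di-GMP samples lay on both sides of the mock samples, and the average log2 change was -0.01 (SE 0.06, 95% interval from -0.16 to 0.13).

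Vha44 encodes subunit C, which links the peripheral stalks to the membrane sector. Its values were -0.02 and -0.05, 0.11 and 0.14, -0.01 and -0.02, and 0.01 and 0.14. All 4 c-di-GMP samples lay above all 4 mock samples, as they did for 9.71% of all genes, and Vha44 was the only general copy with this pattern. The average log2 change of 0.13 (SE 0.05, 95% interval from 0.01 to 0.24) missed the threshold with an adjusted p of 0.118.

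The central stalk is built from subunits D and F. Vha36-1, the general D copy, had values of -0.03 and 0.01, 0.0 and -0.15, 0.0 and 0.05, and 0.0 and -0.05. Vha14-1, the general F copy, had -0.05 and -0.02, 0.09 and -0.03, -0.01 and 0.01, and 0.11 and 0.09. In both genes the c-di-GMP and mock samples overlapped. The average log2 changes were -0.06 (SE 0.05) for Vha36-1 and 0.08 (SE 0.05) for Vha14-1, with intervals from -0.18 to 0.07 and from -0.03 to 0.2.

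Subunits E and G make up the peripheral stalks that hold V1 in place. Vha26, which encodes E, had values of 0.07 and 0.0, 0.0 and -0.05, 0.03 and 0.0, and -0.02 and -0.18. Vha13, which encodes G, had -0.02 and 0.02, -0.15 and -0.16, 0.07 and 0.12, and 0.05 and -0.04. For Vha13 the scrambled c-di-GMP samples were the lowest, whereas the DmSTING RNAi c-di-GMP samples overlapped the scrambled mock samples. Its average log2 change was -0.12 (SE 0.05, limma adjusted p = 0.112), and that of Vha26 was -0.08 (SE 0.05).

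VhaSFD encodes subunit H, a regulator that holds back ATP hydrolysis when V1 is detached. Its values were 0.14 and 0.13, -0.1 and 0.01, 0.11 and -0.01, and -0.08 and -0.1. DmSTING RNAi mock replicate 2, at -0.01, fell among the c-di-GMP samples, and the other mock samples lay above them. Its average log2 change of -0.16 (SE 0.05, 95% interval from -0.28 to -0.03) was the lowest among the general V1 copies and was not called (limma adjusted p = 0.0778).

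Among the restricted V1 copies, Vha68-3 changed and the other 3 were not called. Vha68-3 is a restricted copy of catalytic subunit A and lies in the RefSeq assembly (Release 6 plus ISO1 MT) directly beside Vha68-2, with 1 gene starting between it and Vha68-1. On the log2 scale it stood after scrambled dsRNA at 0.3 and 0.32 under mock and -1.0 and -0.32 under c-di-GMP, and after DmSTING dsRNA at 0.18 and 0.44 under mock and -0.8 and -0.18. under c-di-GMP All 4 c-di-GMP samples lay below all 4 mock samples, which held for 15.4% of all genes. Replicate 1 was the lower sample in both c-di-GMP groups.

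Vha68-3 fell by 0.89 on the log2 scale on average over both arms (SE 0.18, 95% interval from -1.31 to -0.46, limma adjusted p = 0.0142). If the base is 2, that is 54.1% of the mock value. This was the lowest change among the 31 genes. Vha68-3 also had the widest spread between replicates among them, with a within-group standard deviation of 0.336 against a median of 0.085. The call was lost without scrambled mock replicate 2 or without DmSTING RNAi mock replicate 2, where the adjusted p was at most 0.0593. The probe set is annotated to Vha68-3 alone, and whether it also reads the neighbouring A copies was not tested. The restricted D copies Vha36-2 and Vha36-3 and the restricted F copy Vha14-2 had average log2 changes of 0.0, -0.04 and 0.02. For them the spread between replicates, with standard errors of 0.08, 0.12 and 0.08, exceeded the change.

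**Figure D2:**
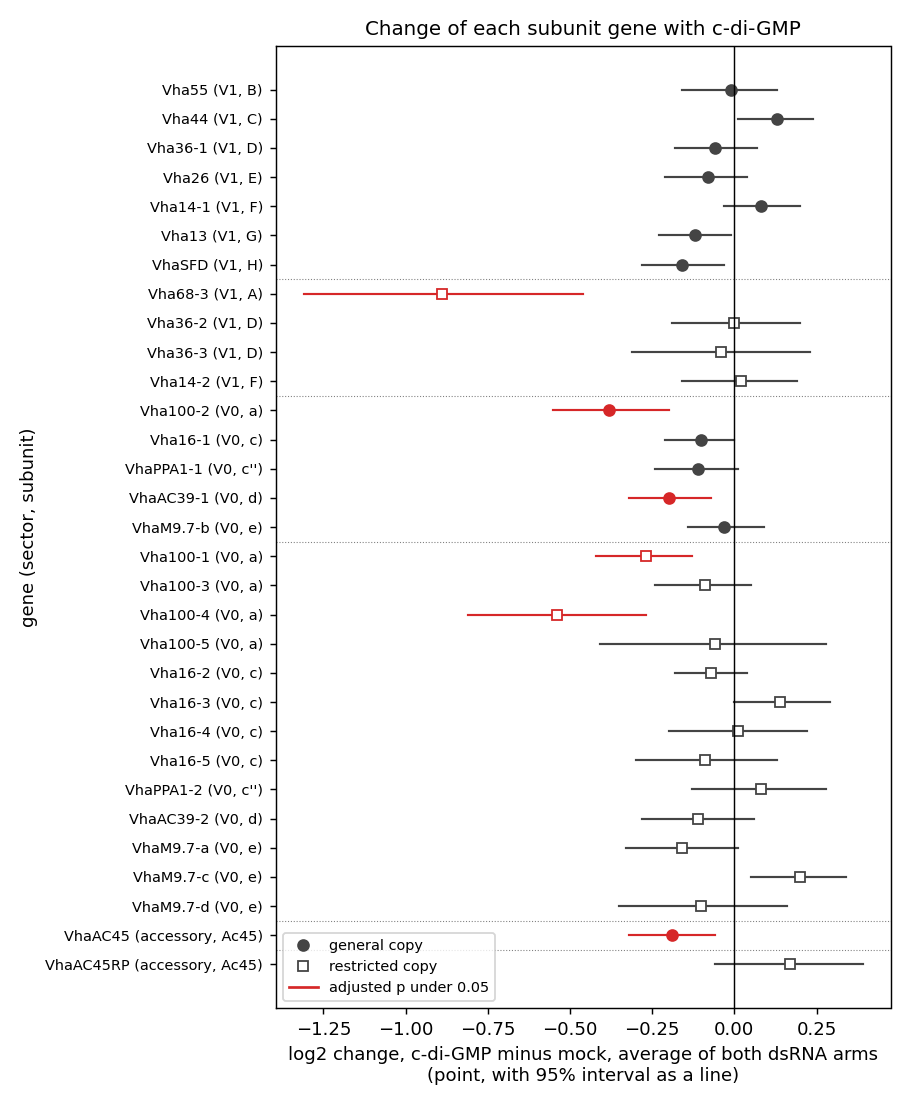
Log2 change of each V-ATPase gene with c-di-GMP, averaged over both dsRNA arms (horizontal axis), with its 95% interval as a line. Filled circles are general copies, open squares restricted copies and red marks the 6 genes with an adjusted p under 0.05, of which Vha68-3 at -0.89 and Vha100-4 at -0.54 lie farthest to the left.

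In the V0 sector 4 of 18 genes (22.2%) fell with c-di-GMP, against 13.3% of all genes, and 3 of these 4 encode subunit a, the large membrane protein that carries the proton path and guides the pump to its compartment. All 5 copies of subunit a had an average log2 change below 0, with a median of -0.272. Vha100-1, Vha100-2 and Vha100-4 were called, and Vha100-3 at -0.09 (SE 0.06) and Vha100-5 at -0.06 (SE 0.15) were not. In each of the 3 called copies all 4 c-di-GMP samples lay below all 4 mock samples. This pattern held for 6 of the 31 genes (19.4%) and for 15.4% of all genes, and the copies were called on these same values.

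Vha100-2 is the general copy of subunit a. After scrambled dsRNA it read 0.05 and 0.3 under mock and -0.27 and -0.05 under c-di-GMP on the log2 scale, and after DmSTING dsRNA it read 0.33 and 0.35 under mock and -0.09 and -0.07 under c-di-GMP. Scrambled mock replicate 1 was the lowest mock sample, and scrambled c-di-GMP replicate 1 the lowest of all. It fell by 0.38 on average (SE 0.08, 95% interval from -0.55 to -0.2, limma adjusted p = 0.0127). The call was lost without either DmSTING RNAi mock replicate, where the adjusted p reached 0.0553.

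Vha100-4, a restricted copy described in the midgut, lies directly beside Vha100-2 in the RefSeq assembly. Its values were 0.27 and 0.2, -0.37 and -0.18, 0.11 and 0.59, and -0.32 and -0.11. The DmSTING RNAi mock replicates were far apart, and replicate 2 of that group held the highest value. Vha100-4 fell by 0.54 (SE 0.11, 95% interval from -0.81 to -0.27, limma adjusted p = 0.0162). The call was lost without either scrambled mock replicate and without replicate 1 of DmSTING RNAi with c-di-GMP, at adjusted p of at most 0.0589.

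Vha100-1 is the copy known for its role at synapses. Its values were 0.05 and 0.12, -0.29 and -0.23, 0.03 and 0.11, and -0.23 and -0.03. DmSTING RNAi c-di-GMP replicate 2, at -0.03, came nearest to the mock samples. Vha100-1 fell by 0.27 on average (SE 0.06, limma adjusted p = 0.0213). The call was lost without scrambled mock replicate 2, either DmSTING RNAi mock replicate or DmSTING RNAi c-di-GMP replicate 1, with an adjusted p of up to 0.0943.

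The proteolipid ring of V0 showed smaller changes, and none of its genes was called. Vha16-1, the general copy of subunit c, was read by 2 probe sets. Its averaged values were 0.05 and 0.03, -0.09 and -0.04, 0.05 and 0.03, and -0.05 and -0.07. All 4 c-di-GMP samples thus lay below all 4 mock samples, as for 15.4% of all genes. The log2 change was -0.1 (SE 0.04, limma adjusted p = 0.156), and the 2 probe sets taken alone stood at -0.16 and -0.04 (SE 0.05 each). VhaPPA1-1, the general copy of the related proteolipid c″, had values of 0.0 and 0.11, -0.02 and -0.11, 0.06 and 0.06, and -0.1 and 0.0, with an average log2 change of -0.11 (SE 0.05, adjusted p = 0.196). The 4 restricted copies of subunit c ranged from -0.09 for Vha16-5 to 0.14 for Vha16-3, and VhaPPA1-2 stood at 0.08 (SE 0.09).

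VhaAC39-1 encodes subunit d, which sits on the ring and meets the central stalk. Its values were -0.01 and 0.13, -0.18 and -0.1, 0.2 and 0.16, and -0.02 and 0.01. The groups did not separate across arms, because DmSTING RNAi c-di-GMP replicate 2 at 0.01 lay above scrambled mock replicate 1 at -0.01. Within each arm both c-di-GMP samples lay below both mock samples. VhaAC39-1 fell by 0.2 on average (SE 0.05, limma adjusted p = 0.037), and leaving out any 1 of 6 samples ended the call (adjusted p up to 0.141). The exceptions were scrambled mock replicate 1 and scrambled c-di-GMP replicate 2. The restricted copy VhaAC39-2 stood at -0.11 (SE 0.07, adjusted p = 0.325).

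Subunit e is a small membrane protein of V0. The general copy VhaM9.7-b had values of 0.0 and -0.02, 0.01 and -0.12, 0.03 and -0.01, and 0.01 and 0.0, and its log2 change of -0.03 (SE 0.05, 95% interval from -0.14 to 0.09) lay inside the replicate spread. The restricted copies were VhaM9.7-a at -0.16, VhaM9.7-c at 0.2 and VhaM9.7-d at -0.1. VhaM9.7-c had the highest change of the 31 genes (SE 0.06, limma adjusted p = 0.0631). Its values were -0.07 and -0.11, 0.18 and 0.02, -0.02 and -0.02, and 0.27 and 0.1. As for 9.71% of all genes, every c-di-GMP sample lay above every mock sample. It was called with the replicate block (0.2, adjusted p = 0.0464) and, at 0.24, when scrambled c-di-GMP replicate 2 was left out (adjusted p = 0.0333). Without that sample VhaM9.7-a was called too, at -0.23 (adjusted p = 0.0368).

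Of the accessory proteins, VhaAC45 encodes Ac45, a membrane protein that assists assembly and sorting of the pump. After scrambled dsRNA it stood at log2 values of 0.03 and 0.03 under mock and -0.03 and -0.19 under c-di-GMP. After DmSTING dsRNA it stood at 0.12 and 0.07 under mock and -0.1 and -0.17 under c-di-GMP. Every c-di-GMP sample lay below every mock sample, as for 15.4% of all genes. The average log2 change was -0.19 (SE 0.05), at an adjusted p of 0.0492 by limma, and the call held in only 2 of the 12 alternatives, the replicate block and leaving out scrambled c-di-GMP replicate 1 (adjusted p up to 0.171 in the others). Its relative VhaAC45RP stood at 0.17 (SE 0.1, adjusted p = 0.281). ATP6AP2, the homologue of the prorenin receptor once named VhaM8.9, is not among the 31 and had a log2 change of -0.11 (SE 0.05, adjusted p = 0.154).

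**Figure D3:**
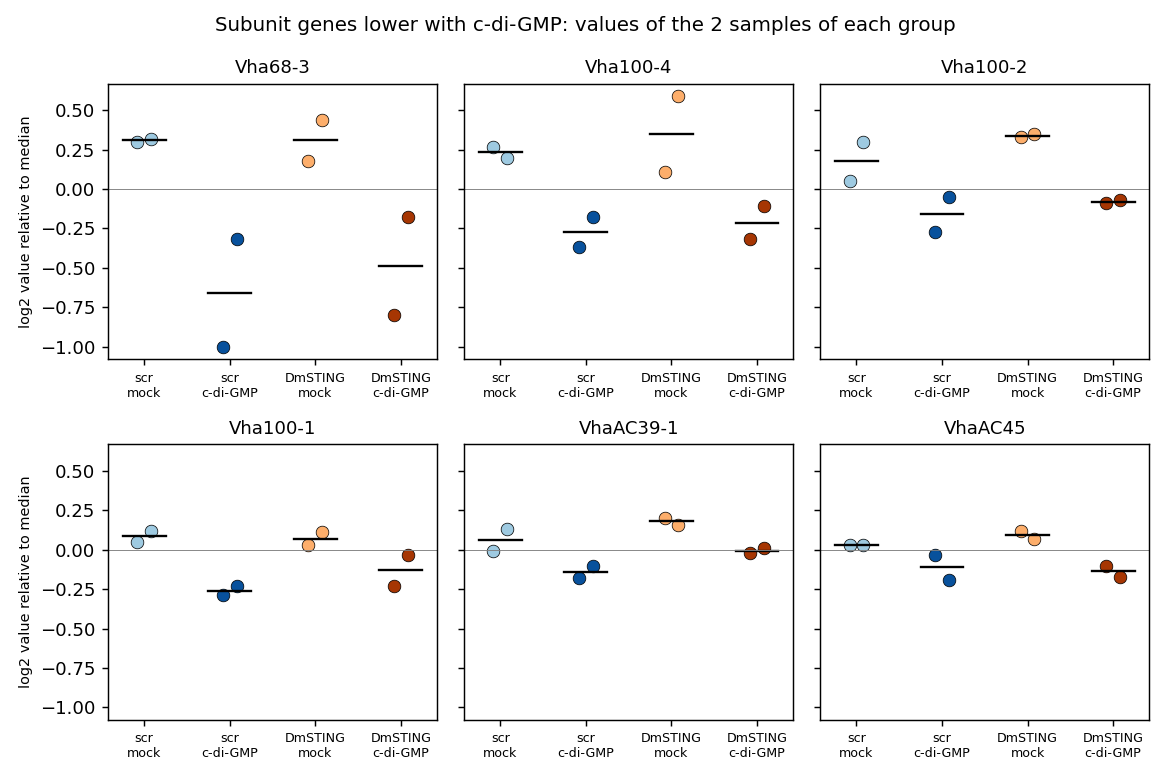
Log2 values of the 2 samples of each group (points) and their mean (bar) for the 6 V-ATPase genes called lower with c-di-GMP, one panel per gene on a shared axis (scr stands for scrambled dsRNA). In 5 panels every c-di-GMP point lies below every mock point, but the genes were picked by their calls on these same values. Over the 31 genes this pattern held for 6 (19.4%), against 15.4% of all genes. In VhaAC39-1 this holds within each dsRNA arm.

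By sector and class, 0 of 7 general V1 copies, 1 of 4 restricted V1 copies, 2 of 5 general V0 copies, 2 of 13 restricted V0 copies and 1 of 2 accessory genes fell, against 13.3% of all genes. The median log2 change was -0.112 in the general V0 copies, -0.057 in the general V1 copies, -0.07 over the 18 restricted copies and -0.027 over all genes. No class was tested against that share. The difference between the sectors was not tested. Restricted copies were noisier. The median standard deviation (SD) between replicates of a group was 0.139 log2 units for them, 0.059 for the general copies and 0.096 over all genes.

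The response was next set out within each dsRNA arm. In the scrambled arm Vha100-1 was called, at -0.34 (SE 0.09, limma adjusted p = 0.0467), against 7.93% of all genes lower and 4.14% higher in this arm, 12.1% in all. Leaving out any 1 of 6 samples (all but the DmSTING RNAi c-di-GMP replicates), quantile normalization, fitting only the 4 samples compared, or testing each probe set separately ended that call (adjusted p up to 0.189). The share of all genes called lower in this arm moved too. It fell without any 1 of the mock samples or scrambled c-di-GMP replicate 1, but rose without scrambled c-di-GMP replicate 2. It was 0.718% in the fit of only the 4 samples compared and 4.64% after quantile normalization. Vha68-3 at -0.97 (SE 0.26, adjusted p = 0.0518) and VhaM9.7-a at -0.39 (SE 0.1, adjusted p = 0.0509) narrowly missed the threshold. Vha68-3 was called after quantile normalization, at -0.79 (adjusted p = 0.0391), and both were called without scrambled c-di-GMP replicate 2, at -1.31 and -0.52 (adjusted p = 0.0205 and 0.0199).

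Within the DmSTING RNAi arm limma counted 6 of the 31 genes at an unadjusted p under 0.05, and 2385 of all 11009. At the adjusted threshold 0 of the 31 were called, by limma or by its robust version. Among all genes limma called 7.44% in this arm, 4.17% lower and 3.27% higher. The share of all genes rests on single samples, since 0 of all genes were called in this arm without either DmSTING RNAi mock replicate, and 1.23% and 0.781% were called lower when c-di-GMP replicate 1 or 2 of this arm was left out. Vha68-3 stood at -0.8 (SE 0.26, adjusted p = 0.118), Vha100-4 at -0.57 (SE 0.16, adjusted p = 0.0843) and Vha100-2 at -0.42 (SE 0.11, adjusted p = 0.0594). Quantile normalization called Vha100-2 at -0.5 (adjusted p = 0.0194) and Vha68-3 at -0.78 (adjusted p = 0.031), and fitting only the 4 samples of this arm called Vha100-2 (adjusted p = 0.0252). Both were also called without either scrambled c-di-GMP replicate, which alters the estimate of spread and not the change.

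The arms use separate mock samples. In 16 of the 31 genes (51.6%) the log2 change was below 0 in both arms, compared with 42.1% of all genes. It was above 0 in both arms in 4 of the 31, and in 3281 of all 11009 genes. Among the general copies 10 of 13 were below 0 in both arms, and among the restricted copies 6 of 18. Vha100-2, VhaAC39-1, Vha16-1 and VhaPPA1-1 of V0, VhaSFD of V1 and VhaAC45, all general copies, were at -0.1 or lower in each arm, whereas VhaM9.7-b stood at -0.05 and 0.0.

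**Figure D4:**
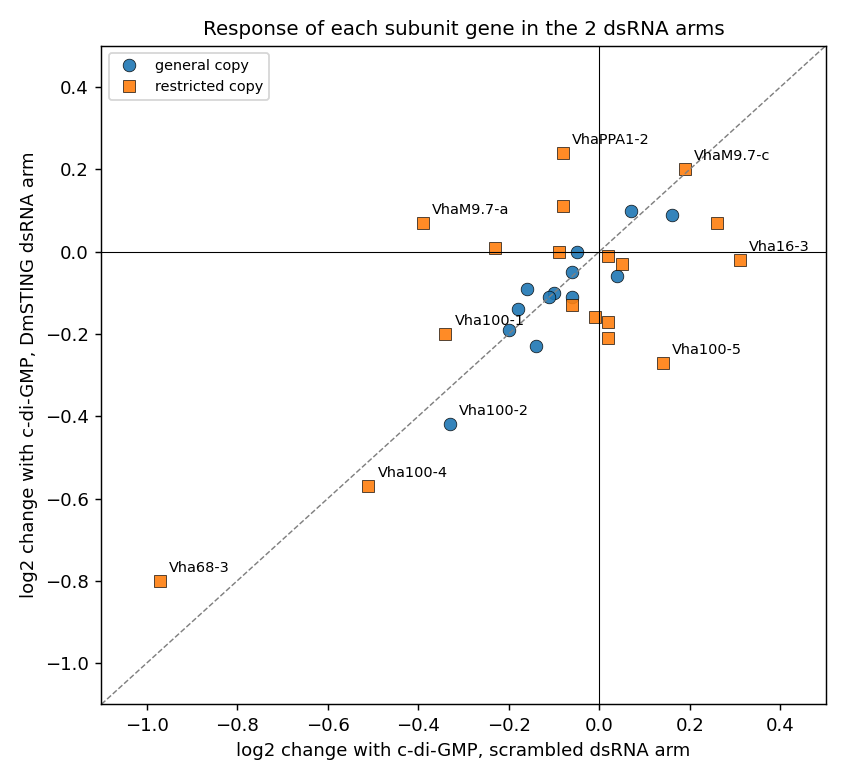
Log2 change with c-di-GMP of each of the 31 V-ATPase genes in the scrambled arm (horizontal axis) and in the DmSTING RNAi arm (vertical axis), with general copies as circles, restricted copies as squares and the dashed line marking equal change. Vha68-3 at -0.97 and -0.8 and Vha100-4 at -0.51 and -0.57 lie near the dashed line, and VhaM9.7-a at -0.39 and 0.07 lies above it.

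The difference between the responses, DmSTING RNAi minus scrambled, was tested as an interaction. No V-ATPase gene was called, and 0% of all genes were. At an unadjusted p under 0.05 limma counted 2 of the 31, VhaM9.7-a and Vha16-3, and 540 of all 11009 genes. At the adjusted threshold the robust version called 0 of the 31. For 5 of the 6 genes that fell on average the difference was smaller than its SE, and for Vha100-1 it was 0.14 (SE 0.12, 95% interval from -0.15 to 0.44). That of Vha68-3 was 0.17 (SE 0.36, 95% interval from -0.68 to 1.02), that of Vha100-4 -0.06 (SE 0.23) and that of Vha100-2 -0.09 (SE 0.15, 95% interval from -0.44 to 0.26). The intervals leave room for a difference as large as several of the responses themselves.

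DmSTING RNAi without regard to c-di-GMP left no V-ATPase gene called, either under mock, under c-di-GMP or averaged over both. Of all genes 0.00908% were called in each of the 3 comparisons, which is 1 gene, Sting itself. At an unadjusted p under 0.05 limma counted 2, 2 and 3 of the 31, against 355, 1511 and 1380 of all 11009 genes. At the adjusted threshold the robust version called 0 of the 31 in each. The average log2 changes lay between -0.14 and 0.21, with a median of 0.052 against 0.019 over all genes. Above 0 were 23 of the 31, and 6321 of all 11009 genes. The highest was Vha16-2, a restricted copy of proteolipid c. After scrambled dsRNA it read -0.07 and -0.05 under mock and -0.04 and -0.04 under c-di-GMP on the log2 scale, and after DmSTING dsRNA it read 0.28 and 0.21 under mock and 0.11 and 0.04 under c-di-GMP. All 4 DmSTING RNAi samples lay above all 4 scrambled samples, as they did for 2.99% of all genes (1.63% lay below), with an average log2 change of 0.21 (SE 0.05, adjusted p = 0.341).

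Genes that work with the pump were set beside it for c-di-GMP averaged over both arms. Of 5 measured genes of V-ATPase assembly and regulation none was called by limma or, at the same adjusted threshold, by its robust version. An unadjusted p under 0.05 by limma was found for 2 of them and for 33.4% of all genes. Rbcn-3B, which belongs to the complex that reassembles V1 with V0, stood at 0.17 (SE 0.05, adjusted p = 0.0511) and was called after quantile normalization. Mitf, the fly relative of TFEB and a transcriptional activator of V-ATPase genes, stood at -0.21 (SE 0.12, adjusted p = 0.264). On the log2 scale it stood after scrambled dsRNA at 0.21 and 0.15 under mock and -0.28 and -0.02 under c-di-GMP, and after DmSTING dsRNA at 0.02 and -0.2 under mock and -0.43 and 0.05. under c-di-GMP Its mock and c-di-GMP samples overlapped.

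Of 17 measured genes of the TORC1 machinery at the lysosome 6 (35.3%) fell and none rose, against 13.3% of all genes lower, with a median of -0.126 against -0.027. Lamtor1, the anchor of the Ragulator complex that binds the V-ATPase, fell by 0.36 (SE 0.05, limma adjusted p = 0.00354). The GATOR2 genes mio, Wdr59 and Wdr24 fell by 0.32, 0.3 and 0.27, and mTor, the kinase itself, was at 0.05 (SE 0.06). The call of Wdr59 was lost without DmSTING RNAi mock replicate 1 (limma adjusted p = 0.0558). The count was 3 without DmSTING RNAi mock replicate 1 and from 5 to 7 without any other sample.

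Of 23 measured genes of lysosomal proteins 12 fell and none rose, 52.2% against the 13.3% of all genes called lower, with a median of -0.196. Cln7, a lysosomal membrane transporter, fell by 0.41 (SE 0.06, limma adjusted p = 0.00354), CtsB, cathepsin B, by 0.38 (SE 0.06, adjusted p = 0.00468), CG3376, a sphingomyelinase, by 0.37 and Hexo2, a hexosaminidase, by 0.35. The call of Hexo2 (SE 0.1, limma adjusted p = 0.0464) was lost with quantile normalization (0.0532) and without either scrambled mock replicate, either DmSTING RNAi mock replicate or replicate 2 of either c-di-GMP group, at an adjusted p of up to 0.135. The count was 5 without any 1 of the mock samples, 6 without replicate 2 of DmSTING RNAi with c-di-GMP and 9 or 10 without any of the other 3. By arm, 7 of the 23 lysosomal genes (30.4%) were called lower in the scrambled arm, against 7.93% of all genes. In the DmSTING RNAi arm 1 (4.35%) was, against 4.17% of all genes. Their median log2 changes in these arms were -0.186 and -0.136, and none of them was called for the interaction. Whether the 3 lists and the V-ATPase genes differ from each other was not tested.

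**Figure D5:**
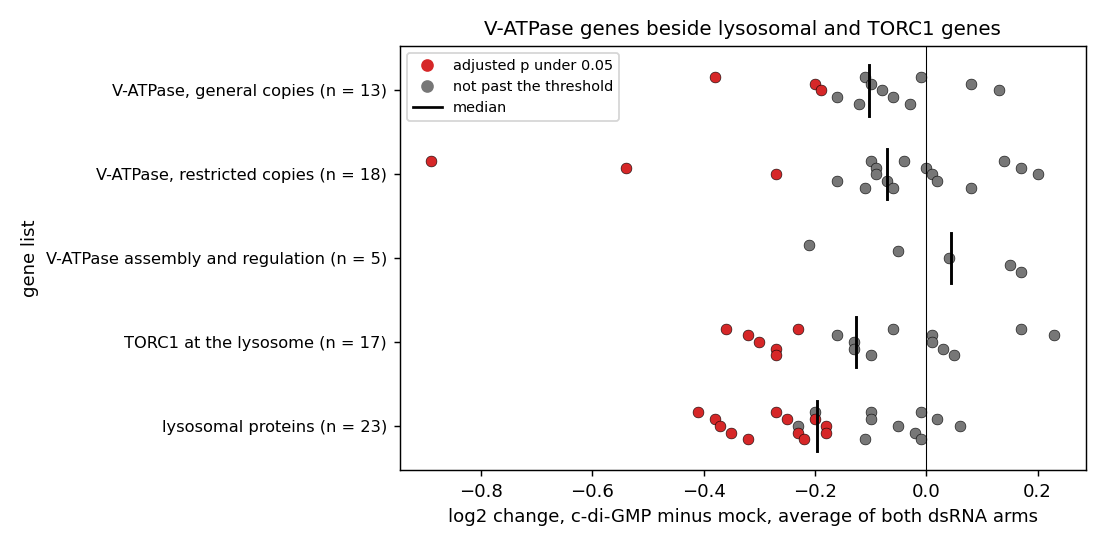
Log2 change with c-di-GMP, averaged over both dsRNA arms, of each gene (point) in 5 lists, with the list median as a black bar and genes at an adjusted p under 0.05 in red. The vertical offset of points is only for legibility, and the medians run from 0.045 for assembly and regulation to -0.196 for lysosomal proteins.

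Of 19 measured marker genes of cell types 7 were called with c-di-GMP averaged over both arms, where 13.3% of all genes were lower and 7.65% higher, and 12 were not. In this comparison 4 of 9 plasmatocyte markers fell (NimC1, vkg, Col4a1 and crq, from -0.6 to -0.34). The other plasmatocyte markers, Hml (0.06), eater (0.05), srp (0.0), Pxn (-0.06) and He (-0.1), were not called. Of 3 neuronal markers 1 rose (elav at 0.19), and brp (0.09) and nSyb (0.11) were not called. Of 3 testis or germline markers 1 fell (bam at -1.26), and vas (0.21) and aly (-0.06) were not called. Of 4 midgut markers 1 fell (Mal-A1 at -0.52), and alphaTry (-0.04), betaTry (-0.17) and Jon65Aiv (-0.03) were not called. The called markers were named after their values were seen. Their part in the V-ATPase changes was not tested.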

How the data were processed

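Total RNA was labelled for Affymetrix 3' IVT arrays, per the protocols in the labels. The deposited table holds log2 values of 16718 probe sets in 8 samples, each probe set relative to its own median, since all 16718 medians lay within 1e-06 of 0. The sources used here do not give summarization, scaling or software. Direction was taken as more transcript at higher values. With 8 arrays, precision is limited by their number.

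Probe sets were named from the platform annotation, with Entrez IDs looked up in the RefSeq gene table (Release 6 assembly): 12339 had 1 symbol, 367 several, 3888 none and 124 were controls. Single-symbol probe sets were averaged per gene. The 31 genes rest on 32 probe sets.

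limma 3.58.1 in R 4.3.3 (lmFit, eBayes) fitted 4 group means to 11009 genes, on 4 residual and 3.25 prior degrees of freedom, for 7 contrasts. The code was tested on simulated data. No low-value filter was possible with centred values.

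Members, classes, lists and tests were chosen with earlier results of these data known. Per-sample values are given for members called in any contrast and for general copies, other members by range or change, and from each list up to 4 called genes with the largest average change, plus Mitf and Sting. Further genes (VhaM9.7-a, VhaM9.7-c and Vha16-2 by sample, Rbcn-3B and mTor) were named after their values were seen. ATP6AP2 was named outside these rules. The 3 partner lists and 4 marker lists were matched by symbol: 5 of 7 assembly, 17 of 20 TORC1, 23 of 28 lysosomal, 9 of 9 plasmatocyte, 3 of 4 neuronal, 3 of 6 testis or germline and 4 of 4 midgut genes were measured. Alternatives were testing probe sets separately, quantile normalization, robust eBayes, a replicate block, fitting only the samples compared and leaving out each sample. A planned search of promoter letters was not run, because no promoter sequence was used here.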

Additional observations from a re-analysis of the deposited data

Results flagged for a closer look

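Changes with c-di-GMP had opposite signs in the arms in 3098 of all 11009 genes and in 11 of the 31. In 2 of them (6.45%, against 2.97% of all genes) both c-di-GMP samples also lay above both mock samples in 1 arm and below both in the other. VhaM9.7-a, a restricted copy of subunit e, was in the scrambled arm at 0.21 and 0.05 under mock and at -0.4 and -0.13 under c-di-GMP. After DmSTING dsRNA it was at -0.04 and -0.03 under mock and at 0.03 in both treated samples. The difference of responses was 0.46 (SE 0.14, unadjusted p = 0.0146, limma adjusted p = 0.988). Vha16-2 was slightly higher with c-di-GMP in the scrambled arm (0.02, SE 0.07) and lower in the DmSTING RNAi arm (-0.17, SE 0.07), a difference of -0.19 (SE 0.09, limma adjusted p = 0.988). Neither difference passed the correction over all genes. Groups of 2 samples are too small for a check of single outlying samples.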

How the results depend on the processing

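No V-ATPase gene was called for the interaction or for DmSTING RNAi under any alternative run, and no called change turned its sign. For c-di-GMP averaged over both arms the count of 6 was 5 with quantile normalization, robust eBayes or separate probe sets and from 1 to 7 when each sample was left out. Leaving out a sample also leaves fewer degrees of freedom. In the scrambled arm the count of 1 became 2 with the replicate block (Vha100-1 and Vha68-3), 0 when only the 4 samples compared were fitted, 0 with separate probe sets, and from 0 to 2 when each sample was left out. In the DmSTING RNAi arm the count of 0 became 2 with quantile normalization, 2 with the replicate block, 1 with only the 4 samples compared and from 0 to 2 when each sample was left out. The cause was not tested. Of the partner lists, tried after seeing the data, assembly and regulation went from 0 to 1 with quantile normalization and was 0 without any sample, TORC1 ranged from 3 to 7 and lysosomal proteins from 5 to 10 when each sample was left out. Replicate numbers are shared by the groups. Correlations of replicate deviations over genes ran from 0.0093 to 0.2895, the highest between the scrambled and DmSTING RNAi c-di-GMP groups. These values cannot tell whether samples with the same number were handled together. The replicate block gave 7 calls in place of 6 for the average. The only-4-samples fit was not run for the interaction and averages, which use all 8 samples. Centred values hide signal over background.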
